A study of Homo sapiens with 6 samples.

Results

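The genes described here are 10 channel genes, the 5 members of the 2q24 sodium channel cluster (SCN3A, SCN2A, SCN1A, SCN9A and SCN7A) and 5 long potassium channel genes (KCNH7, KCND2, KCNQ3, KCNB2 and KCNH5). They were chosen by name, with no threshold, though with earlier results of these data known. They are 10 of 19974 protein-coding genes on chromosomes 1 to 22 and X. For each gene the share of its RefSeq body inside regions called for LaminB1, and the place of the region edges, were read from 4 lists.

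CUT&RUN, in which an antibody-bound nuclease releases the DNA near its target, was used to map LaminB1, a component of the nuclear lamina. The cells were HCT116, a line from a colorectal carcinoma. In every group both endogenous TOP2A alleles carry a mini auxin-inducible degron (mAID). The control group was this TOP2A mAID line with no auxin, which the labels call wildtype. The double loss group was TOP2A mAID/TOP2B -/-, given 500 uM auxin for 8 h, by which up to 95% of TOP2A is removed according to the series text. Palbociclib (2 uM, 28 h) kept cells of both groups in G1, and each group had 2 LaminB1 libraries. Whether the replicates were separate cultures and whether each line is 1 clone is not stated in the labels, so the spread between libraries may be technical.

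Voltage-gated sodium channels open on depolarisation and carry the rising phase of the action potential, and voltage-gated potassium channels repolarise the membrane and set firing patterns. Most of these genes are known for neuronal expression. Long, tissue-restricted genes of this kind often lie in lamina-associated domains, which are large, gene-poor and mostly silent, in cells that do not use them. The lists hold DNA positions only, so expression of the channels was not measured here.

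The lists held 10771 to 13599 regions with 7263458 to 8351031 LaminB1 reads inside them. Depth outside regions is unknown. The file headers call the control library input. The labels list 1 IgG library per group, and whether it served as that input is not stated. Each group had been scored against its own control library: where regions shared both edges, the control library count was the same for 44 of 44 pairs from the control lists and 61 of 61 from the double loss lists. Between groups it was the same for 1 of 33, 2 of 36, 0 of 43 and 0 of 42 pairs. Control library, genotype and auxin therefore cannot be told apart. TOP2A, TOP2B and LMNB1 were at 0% in all 4 lists, which gives no check of either loss.

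All 10 channel genes lay at least partly in LaminB1 regions in each of the 4 lists, and 9 of them were covered over at least 50% of their length in every list; the exception was KCNH5. For comparison, 4.28% of all protein-coding genes and 18.7% of the 1396 genes of at least 200 kb reached that level. Only the 5 potassium channel genes are that long, and 4 of them reached the level. The 5 sodium channel genes are shorter, at 90.7 to 181 kb, and lie in 1 cluster, so they are not independent. The median covered share of the 10 genes was 90.1% in the control group and 90.9% in the double loss group. Over the 3058 genes with any covered sequence the medians were 43.3% and 49.2%.

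Group means differed by less than 6 percentage points for 8 of the 10 genes and for 31.4% of the 3058 tested genes. The bound lies just above the largest of these 8 differences in size (SCN7A, -5.75 points), so the count of 8 depends on where it was placed. The tested genes are also no like background. At least 50% coverage in every list was reached by 27.9% of them, against 9 of the 10 genes. Whether the channel genes changed less than genes of like coverage was not tested. None of the 10 passed limma at an adjusted p under 0.05, against 1.67% of tested genes called higher and 0.981% called lower (2.65% in all), and 1 of them, KCND2, had an unadjusted p under 0.05, as did 15.6% of tested genes. Both double loss lists lay above both control lists for KCND2 and KCNH5, where 21.5% of tested genes did so, and below both for SCN2A, where 13.9% did so. The median difference was 0.0945 points over the 10 genes and 0.768 points over all tested genes. Together the 10 bodies span 2758 kb, of which the control lists covered 2182 and 2173 kb and the double loss lists 2358 and 2439 kb. The groups did not overlap (two-sided exact permutation test, p = 0.33), and this p is the smallest that 2 against 2 libraries allow. With only the upper 50% of regions by log2 fold in each list, the difference of means was 112 kb and the groups overlapped (exact permutation p = 0.67). Without KCND2 the difference of means dropped from 221 to 65.1 kb. The lists as a whole also covered more in double loss, at 610 and 622 Mb against 594 and 549 Mb in control. The summed length of the 10 genes was not adjusted for this.

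**Figure D1:**
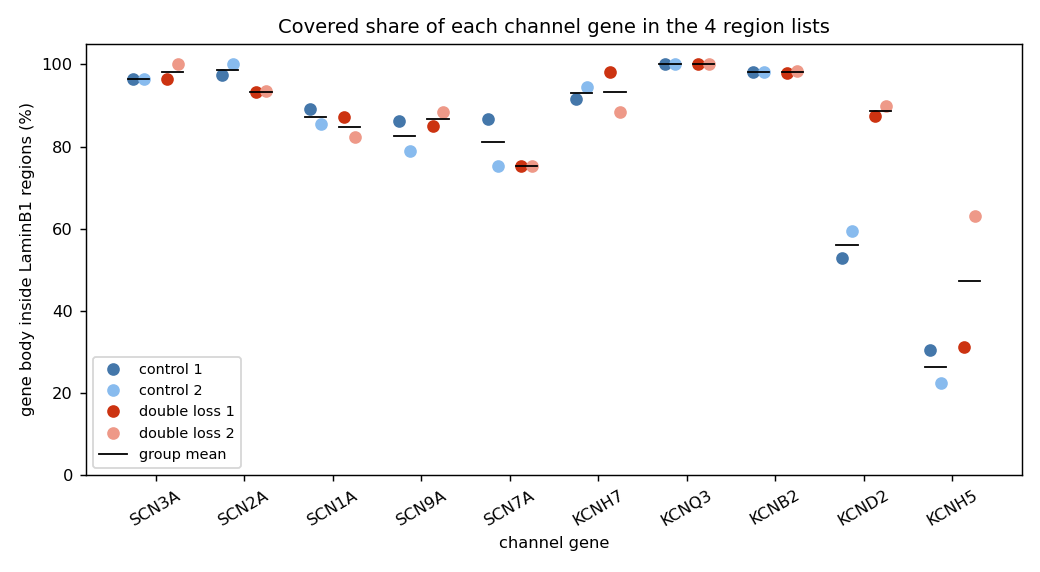
The vertical axis gives the percent of each gene body inside LaminB1 regions, with 1 point per list and a bar at each group mean. KCNQ3 and KCNB2 sit at or near 100% in every list, KCND2 is the gene with the clearest separation of the groups, and KCNH5 is the least covered.

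**Figure D2:**
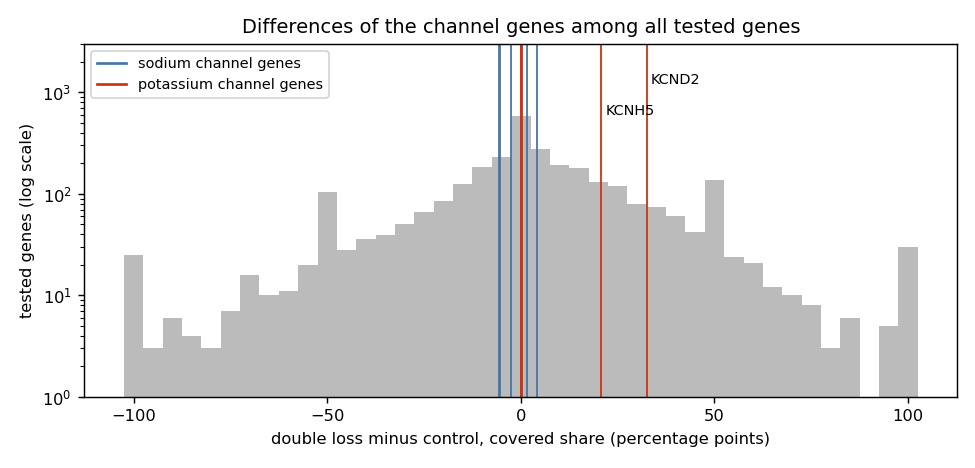
The grey histogram counts all 3058 tested genes by the difference of group means in percentage points (log scale on the vertical axis), and coloured lines mark the channel genes. The 5 sodium channel genes and 3 potassium channel genes lie within 6 points of 0; KCNH5 is at 20.8 and KCND2 at 32.6 points.

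Start sites and the sequence before them are shown because these genes were mostly covered while some of their start sites were not. RefSeq start sites (GRCh38.p14, a patch release of the hg38 assembly) were matched for 6 of the 10 genes, at 9 positions. Of these, 5 lay inside regions of all 4 lists, 2 in no list (SCN9A and KCND2), 1 in 3 lists (SCN1A, inner start) and 1 in a single list (KCNH5). Of all start sites of protein-coding genes 2.57% lay inside regions of every list. Among start sites of genes covered over at least 50% in every list, 50.9% lay inside regions of all 4 lists and 10.1% in none. The 250 bases before 5 of these start sites follow, read 5′ to 3′ on the gene's strand, with each CG dinucleotide in capitals. The pair reads CG on both strands.
SCN9A, minus strand, chr2:166375945-166376194, in no list: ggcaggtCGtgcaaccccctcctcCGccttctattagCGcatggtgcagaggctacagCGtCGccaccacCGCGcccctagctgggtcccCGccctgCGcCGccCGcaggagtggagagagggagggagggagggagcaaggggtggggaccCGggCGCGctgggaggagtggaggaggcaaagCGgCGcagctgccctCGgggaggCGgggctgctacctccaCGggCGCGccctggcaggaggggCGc
KCND2, plus strand, chr7:120272925-120273174, in no list: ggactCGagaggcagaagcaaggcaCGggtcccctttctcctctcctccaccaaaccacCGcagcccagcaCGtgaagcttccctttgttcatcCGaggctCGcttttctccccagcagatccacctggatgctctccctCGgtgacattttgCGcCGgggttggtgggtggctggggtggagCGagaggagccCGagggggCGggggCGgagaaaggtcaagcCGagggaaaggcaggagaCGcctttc
KCNH5, minus strand, chr14:63045459-63045708, in double loss 2 only: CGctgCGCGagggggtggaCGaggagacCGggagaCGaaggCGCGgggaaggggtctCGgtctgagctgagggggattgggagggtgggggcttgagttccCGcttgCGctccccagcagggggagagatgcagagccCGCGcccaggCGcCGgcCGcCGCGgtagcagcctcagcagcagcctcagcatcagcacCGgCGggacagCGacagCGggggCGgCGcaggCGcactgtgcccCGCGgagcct
SCN2A, plus strand, chr2:165239164-165239413, in all 4 lists: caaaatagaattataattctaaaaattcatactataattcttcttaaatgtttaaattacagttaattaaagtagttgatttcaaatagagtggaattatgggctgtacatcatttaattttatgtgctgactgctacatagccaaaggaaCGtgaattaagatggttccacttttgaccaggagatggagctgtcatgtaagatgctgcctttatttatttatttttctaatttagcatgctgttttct
SCN1A, inner start, minus strand, chr2:166128021-166128270, in all lists but double loss 1: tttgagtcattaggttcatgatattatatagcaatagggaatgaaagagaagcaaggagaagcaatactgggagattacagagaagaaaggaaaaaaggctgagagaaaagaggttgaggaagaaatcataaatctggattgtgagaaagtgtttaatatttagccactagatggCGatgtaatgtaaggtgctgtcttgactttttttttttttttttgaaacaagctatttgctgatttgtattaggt

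The windows differ in base composition along with their place. SCN9A has 22 CG pairs, KCND2 15 and KCNH5 27, while the SCN2A and inner SCN1A windows have 1 each. Both SCN7A windows, covered in all 4 lists, have 0 and 10. Over all 22132 start sites of protein-coding genes the median window held 16 pairs, and 96.8% held at least 1. Among the 949 start sites of well covered genes (at least 50% in every list), the median was 3 pairs for those inside regions of all 4 lists and 20.5 for those in none. These counts describe the windows and were not tested.

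The 2q24 cluster runs from 165087526 to 166494249 on chromosome 2 and holds the 5 sodium channel genes together with CSRNP3, GALNT3, LOC124906086 and TTC21B. Of its 1407 kb the control lists covered 1280 and 1212 kb and the double loss lists 1217 and 1210 kb. The groups overlapped: the mean was 1246 kb ± 48.1 against 1213 kb ± 4.95 (SD, n = 2 each; exact permutation p = 0.67, two-sided), and without control 1 the difference of means turned from -32.5 to 1.5 kb. All 4 lists shared 72.2% of the span, and 4.34% was in no list. Most of the cluster lay in LaminB1 regions in both groups. Its gaps included stretches of 31, 11, 9, 6 and 4 kb found in no list, beside others present in some lists only.

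**Figure D3:**
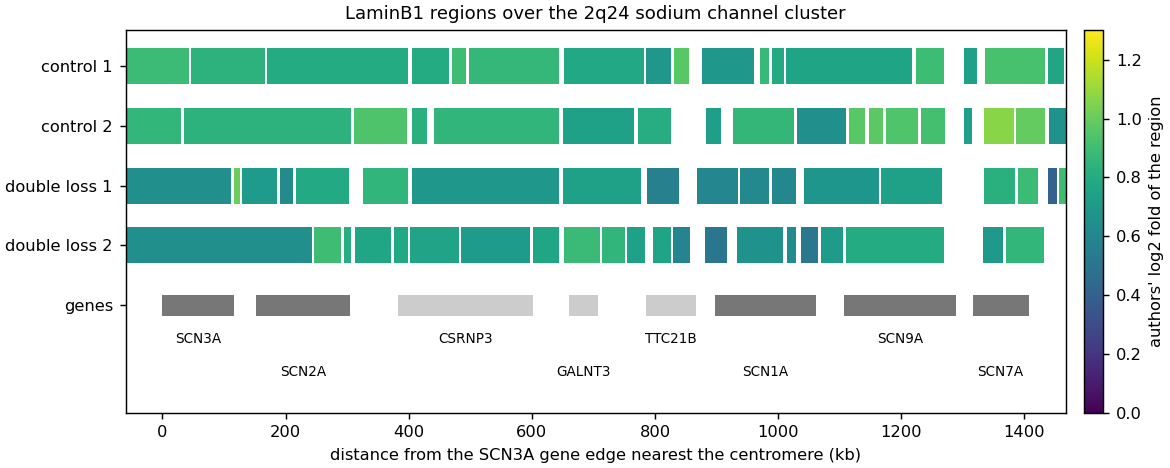
Each row is 1 list, and each bar a called region, coloured by its deposited log2 fold (LaminB1 against control library); grey bars are genes (dark for channel genes). The horizontal axis is distance in kb from the SCN3A edge. Regions fill most of the span in all 4 lists, and a gap of 31 kb that takes in the SCN9A start is shared by all.

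SCN3A, the alpha subunit best known from embryonic brain (165087526 to 165204050), was covered at 96.6% in both control lists and in double loss 1, and at 100% in double loss 2. The 2 controls and double loss 1 each had 1 short gap within the gene, at different places. The difference of 1.72 points did not pass (limma adjusted p = 0.589); without double loss 1 it was 3.43 points at an adjusted p of 0.00664, but the double loss group then has 1 library, and the spread comes from the 2 equal control values and the other genes.

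SCN2A encodes the alpha subunit of excitatory neurons and the axon initial segment (165239414 to 165392304). It was at 97.4% and 100% in the control lists and at 93.3% and 93.5% in the double loss lists. Both double loss lists were lower, by 5.33 points between means (limma adjusted p = 0.446). Without control 1 the difference was -6.64 points with an adjusted p of 0.0243, but the control group then has 1 library and the spread comes from the close double loss pair and the other genes. In control 2 a region of 272 kb held the whole gene, while each double loss list had 3 regions across it. No stretch of SCN2A was in both control lists and absent from both double loss lists, so the breaks fell at different places.

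SCN1A, the alpha subunit central to inhibitory interneurons (165984641 to 166149161), was covered at 89.1% and 85.4% in the control lists and at 87.2% and 82.4% in the double loss lists. The groups overlapped (limma adjusted p = 0.689). A stretch of 6 kb, from 166118001 to 166124000, was in both control lists and in neither double loss list. It was the only such stretch of at least 3 kb in the 5 sodium channel genes. In double loss 1 regions resumed only at 166130001, which left out the inner start site at 166128020. The outer start at 166149161 lay inside regions of all 4 lists.

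SCN9A, the alpha subunit of pain-sensing neurons (166195185 to 166375987), was at 86.2% and 79.0% in the control lists and at 85.1% and 88.5% in the double loss lists (limma adjusted p = 0.589). The gene lies on the minus strand. Within its body, downstream of its start, regions stopped at almost the same place in every list. They ended at 166357000 in control 1 and double loss 2, at 166358000 in control 2 and at 166353000 in double loss 1. The first 17.99 kb of the gene, which hold its CG-rich start, were in no list. That gap went on to 166389000. The start site lay 13.1 to 22.9 kb from the nearest region edge.

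SCN7A encodes the atypical sodium-sensing member of the family (166403573 to 166494249). It was covered at 86.8% in control 1 and at 75.3% in each of control 2, double loss 1 and double loss 2. Within the gene body only control 1 stood apart. Control 1 had an unbroken region from 166423001 to 166521000, where each other list had a break inside the gene. It also had a region from 166390001 to 166411000 that ran into the gene. Control 2 also had a region there, which ended before the gene. The 13 kb from 166390001 to 166403000, outside the gene, were in both control lists and in neither double loss list. With 10 kb flanks the difference was -13.5 points (limma adjusted p = 0.459). Without control 1 the difference of -5.75 points became 0. A stretch of 9 kb, from 166411001 to 166420000, was in no list, and both start sites were in all 4. The regions over SCN7A had median folds at percentiles 93.2 to 97.9 of their own lists by the authors' log2 fold. For the other 4 sodium channel genes the percentiles ran from 65.5 to 96.6.

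Coverage of the other genes in and around the cluster varied from gene to gene. CSRNP3, inside it, was at 93.2% and 91.4% in the control lists and at 97.3% and 94.4% in the double loss lists, and GALNT3, a glycosyltransferase gene, was at 100% in all 4. TTC21B, a gene of ciliary transport, was at 81.6%, 50.5%, 64.7% and 70.9% (control 1 and 2, double loss 1 and 2). Its start at 165953776 lay in a stretch of 11 kb found in no list, as the SCN9A start did, and its window held 24 CG pairs. The start of GALNT3, with 26 pairs, was inside regions of all 4 lists, and the outer start of GRB14, with 33 pairs, was inside regions of 3. Within 1 Mb on the lower side GRB14 was at 65.5% to 96.9%, COBLL1 at 55.4% to 71.7% and SLC38A11 at 18.3% to 54.2%. On the higher side XIRP2 was at 66.6% to 75.5% and B3GALT1 at 90.7% to 95.2%. The short locus LOC124906086, next to GALNT3, was at 100% in 3 lists and at 60.7% in double loss 2. None of these 9 genes passed limma.

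KCNH7, which encodes a channel of the ether-a-go-go-related family, lies below the cluster on the same chromosome (162371407 to 162838767). It was covered at 91.5% and 94.5% in the control lists and at 98.1% and 88.3% in the double loss lists. The double loss lists were the highest and the lowest of the 4 (limma adjusted p = 0.975). Double loss 1 held 2 regions there and double loss 2 held 7, so the gene was called in few long blocks in one and in shorter pieces in the other.

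KCND2 stood out from the other channel genes. It encodes the pore subunit of the A-type potassium current of neuronal dendrites and lies at 120272908 to 120750337 on chromosome 7. Its covered share was 52.9% and 59.4% in the control lists and at 87.4% and 89.9% in the double loss lists. Both double loss values were above both controls, with group means of 56.1% ± 4.61 and 88.7% ± 1.78 (SD, n = 2 each). The difference of 32.6 points was larger than the spread within either group. It did not pass over all genes (limma unadjusted p = 0.00944, adjusted p = 0.134; arcsine scale 0.38 ± 0.0578, SE). A difference of at least 32 points upward was found in 14.4% of tested genes.

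Inside KCND2, 68 kb was in both double loss lists and in neither control list, and 4 kb was the reverse. The longest stretches of the first kind lay at 120553001 to 120578000 (25 kb), followed by 120538001 to 120549000 (11 kb) and 120625001 to 120635000 (10 kb). Between 120538001 and 120664000 control 2 had no region and control 1 had 2. Another 155 kb was in all 4 lists. The start site at 120273175 remained outside regions in each list, 0.174 to 14.2 kb from the nearest edge. A stretch of 4 kb from 120273001 to 120277000 was in no list.

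Reads in the regions over KCND2 were set against the mean density of the list they came from. LaminB1 reads per kb were 0.917 and 0.873 times that mean in the control lists and 0.982 and 0.99903 times in the double loss lists. Control library reads were 0.905, 0.865, 0.870 and 0.867 times their own mean, in the same order. The regions differ between lists and reach past the gene, so these densities were not tested. The authors' log2 folds of these regions were 0.61 and 0.56 at the median for the controls, against 0.71 and 0.77 for double loss, each scored against its own control library.

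TSPAN12, the gene after KCND2 and a tetraspanin of retinal vessel signalling, was at 0% in both control lists and at 55.4% and 60.1% in the double loss lists. It rose by 57.7 points and passed (limma adjusted p = 0.0233). The call was lost without control 1 or control 2 (adjusted p = 0.0673 and 0.0637), with an equal region number (0.0676), with 10 kb flanks (0.127) and with the replicate number as a block (0.35), while the difference stayed at 47.1 to 60.1 points. ANKRD7, on the other side across a wide interval, was at 40.5% and 0% in the control lists and at 100% and 77.8% in the double loss lists (adjusted p = 0.428).

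**Figure D4:**
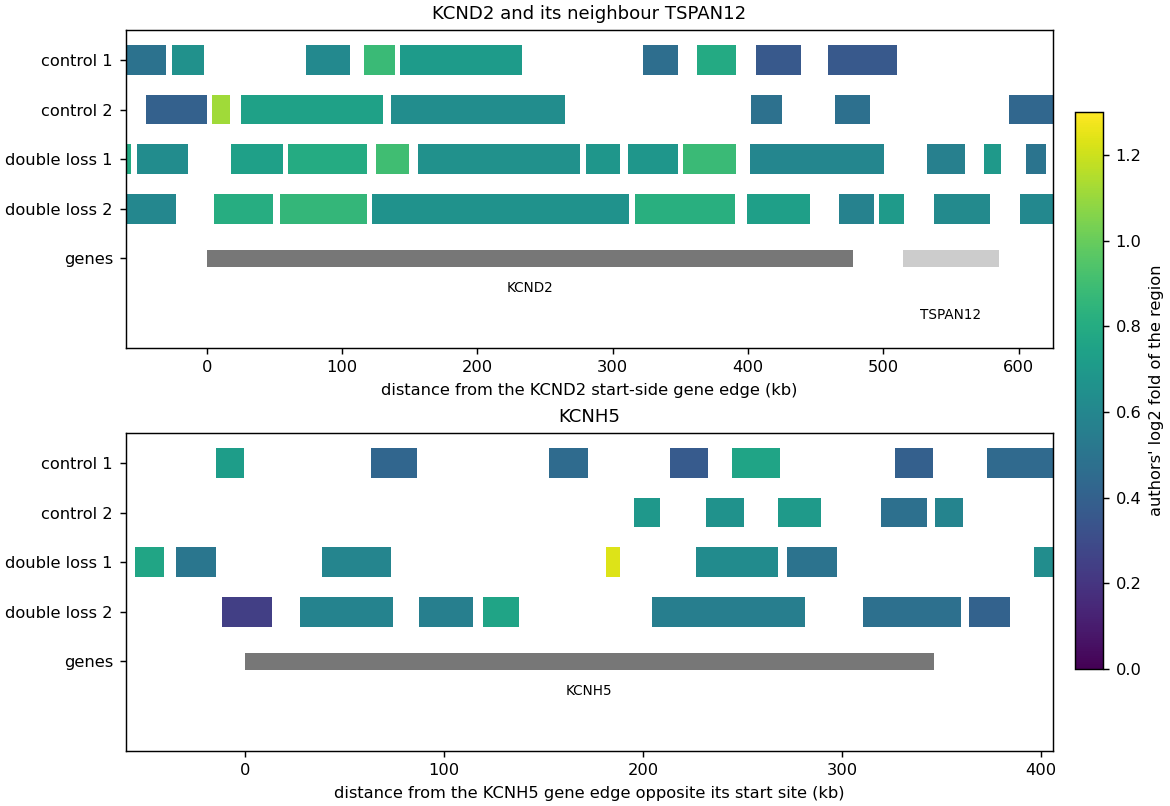
Rows are lists, bars are called regions coloured by the authors' log2 fold, and the horizontal axes give distance in kb from 1 edge of KCND2 (upper panel) and KCNH5 (lower panel). In KCND2 the double loss lists fill most of the stretch between about 265 and 391 kb, where control 1 holds 2 regions and control 2 none; in KCNH5 the regions are short and shift between lists.

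KCNH5 encodes a channel of the ether-a-go-go family found mainly in brain and lies at 62699464 to 63045458 on chromosome 14. It was covered at 30.3% and 22.3% in the control lists and at 31.2% and 63.0% in the double loss lists. Double loss 1 was only just above control 1, and double loss 2 alone was high. The difference of 20.8 points was smaller than the SD of the double loss group, 22.5 points (limma adjusted p = 0.589), and without double loss 2 it was 4.91 points. Only 7 kb of the gene was in all 4 lists, and 64 kb was in none. A stretch of 25 kb from 62738001 to 62763000 was in both double loss lists and in neither control list. The start site was inside a region in double loss 2, and it lay 0.457 and 0.543 kb outside one in the control lists.

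KCNQ3, a subunit of the M-current that limits repetitive firing, was covered at 100% in all 4 lists (132120861 to 132481095 on chromosome 8). The whole gene fell inside 1 region per list, of 920 kb in both control lists and of 2623 and 1361 kb in the double loss lists. No region edge lay within it. Its neighbours HHLA1 and DNAAF11 were at 100% as well.

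KCNB2, which encodes a delayed-rectifier subunit (72537225 to 72938349 on chromosome 8), was covered at 98.3% in both control lists and at 98.0% and 98.5% in the double loss lists. The gene was crossed by 2 regions in every list. The longer one ended at 72875000 in all 4 lists, and the next began between 72881001 and 72883001. In each list the region before this gap had a higher fold than the region after it. Each fold is 1 value for a whole region that reaches past the gene, so where the signal changes is not resolved. The authors' log2 fold was 0.72 before the gap and 0.26 after it in control 1, and 0.71 and 0.29 in control 2. In double loss 1 it went from 0.59 to 0.16 and in double loss 2 from 0.60 to 0.25.

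LaminB1 reads per kb were lower, as the fold was, in the region after the gap. Over the whole regions they were at 18.4 to 19.8 per kb before the gap and at 14.3 to 15.4 per kb after it. Control library reads were at 9.29 and 9.88 per kb before and after the gap in control 1, at 9.04 and 9.84 in control 2, at 12.4 and 12.7 in double loss 1, and at 12.4 and 12.3 in double loss 2. They were thus higher after the gap in 3 of 4 lists. TERF1, the telomere-binding factor gene beyond KCNB2, was at 100% in 3 lists and at 46.5% in double loss 2, and TRPA1 on the other side was at 100% in all 4. KCNB2 and KCNQ3 both lie on chromosome 8. In the regions over them control library reads were 1.32 to 1.47 times as dense as the mean of their list. LaminB1 reads there were 1.33 to 1.52 times as dense as their own mean. For the other 8 genes the ranges were 0.764 to 0.919 times for the control library and 0.831 to 1.04 times for LaminB1. The part of these differences in the calls was not tested.

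**Figure D5:**
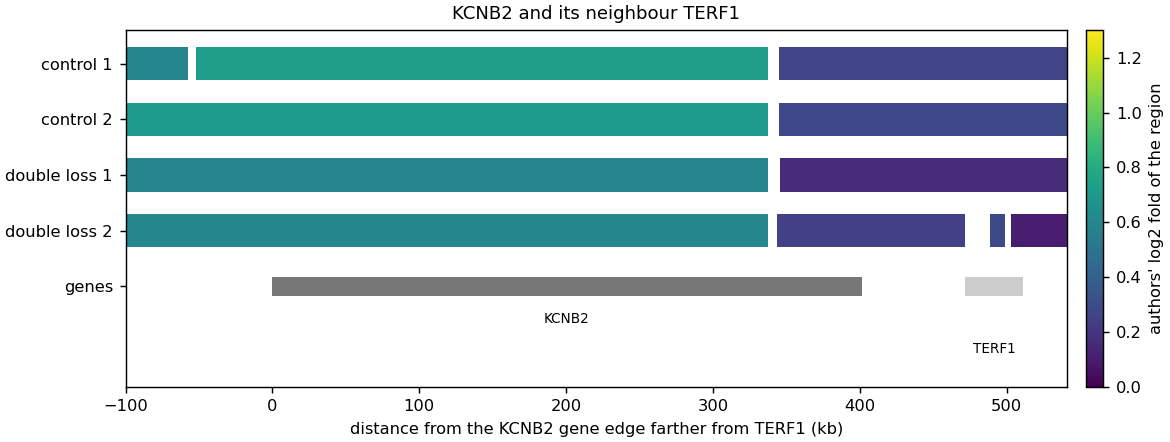
Rows are lists, bars are called regions coloured by the authors' log2 fold, and the horizontal axis is distance in kb from the KCNB2 edge farther from TERF1. The same gap near 338 kb separates a high-fold region from a low-fold region in all 4 lists.

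Region edges within the channel genes were compared between the lists. The 4 lists placed 193 edges inside the 10 bodies, 46 to 51 per list. Of these, 84 (43.5%) lay within 5 kb of an edge of the same kind in another list, and 23 (11.9%) had such a partner in all 3 other lists. All 8 edges in KCNB2 were of that last kind, as were 4 of 17 in SCN9A, 4 of 11 in SCN7A, 5 of 33 in KCNH7 and 2 of 49 in KCND2. KCNH5 had none among 36, and none was found in SCN3A, SCN2A or SCN1A. At least 1 partner in the other group was found for 65 edges, and a partner in the same group for 52; the other group offers 2 lists and the same group 1, so these counts are not comparable. With a tolerance of 1 kb 49 edges had a partner, and with 10 kb 130. The same share over all region edges was not computed, nor the share that edges placed at random would reach. Partners by position alone are more frequent where edges are dense, as in KCND2 and KCNH5. The shares with a partner are therefore no measure of how far the lists repeat.

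Other genes of the same channel families were mostly outside LaminB1 regions. They were 72 genes in 5 sets: other sodium channel alpha subunits, beta subunits, other voltage-gated potassium channel subunits, their auxiliary subunits and calcium channel subunits. Of the 72, 20 had covered sequence, a larger share than the 15.3% of all protein-coding genes. Covered over at least 50% in every list were 7, again a larger share than the 4.28% of all protein-coding genes. The sets were not matched to other genes by length. None of the 20 passed limma in either direction, and 3 of them had an unadjusted p under 0.05, near the 15.6% of all tested genes. The median difference of the 20 was 0.214 points, against 0.768 over all tested genes.

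Among the other sodium channel alpha subunits 2 of 5 were covered, both on chromosome 3. SCN10A was at 35.3% in the control group and 26.4% in the double loss group, and SCN11A at 32.6% and 33.0%. SCN3B, an accessory beta subunit, was the only covered gene of 4, at 37.1% and 53.6% in the control lists and at 100% and 34.6% in the double loss lists.

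Of 35 other potassium channel subunits 8 were covered. KCND3, in the same subfamily as KCND2, was at 11.9% and 0% in the control lists and at 29.2% and 40.2% in the double loss lists. Both were higher, and the gene did not pass (limma adjusted p = 0.404). KCNA3, of the Shaker-type channels, was at 0% in 3 lists and at 72.2% in double loss 1. KCNS3, a modulatory subunit, was at 97.9% and 100% in the control lists and at 72.5% and 92.7% in the double loss lists. KCNH1, KCNQ5, KCNA4 and KCNV1, named after their values were seen, were covered at 65.2% to 100% in every list.

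Auxiliary potassium channel subunits had 5 of 14 genes covered. KCNIP4, whose protein binds the channels of the KCND2 family, was at 38.8% and 27.8% in the control lists and at 51.6% and 48.7% in the double loss lists. KCNIP1, of the same family, moved the other way, at 49.5% and 47.1% against 35.2% and 31.2%, and KCNAB1 was at 0% against 4.99% and 5.94%. None of them passed (limma adjusted p = 0.510, 0.445 and 0.242).

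Calcium channel subunits had 4 of 14 genes covered. CACNA1D was at 13.2% and 17.9% in the control lists and at 0% in both lists of the double loss group (adjusted p = 0.111, limma). CACNA1E, named after its values were seen, was at 87.9% to 92.0%. CACNA2D3 was at 76.6% and 77.0% against 67.9% and 62.3%, and CACNA2D1 was at 4.82% in double loss 2 only.

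Among 738 covered genes of at least 200 kb, those with the 4 shares closest to KCND2 by Euclidean distance over the 4 lists were PLCH1 (60.2%, 67.0%, 84.7% and 84.0%), RGS7 (63.8%, 63.2%, 83.1% and 92.1%) and EXT1 (54.9%, 46.5%, 87.8% and 94.4%), at 12.4, 12.5 and 13.8 points. Each pair of double loss values was above its pair of controls. Closest to KCNH5 were NPAS3, SLIT2 and ANKRD44, at 8.62, 9.56 and 11.3 points, all with double loss 2 as the highest list. SCN7A, at 90.7 kb, is itself shorter than the 200 kb limit of this comparison. Closest to it were TRDN, CFAP299 and MYRIP, at 3.86, 4.95 and 5.04 points, all highest in control 1. All of these genes were picked by the same 4 shares. Their likeness in the order of the lists follows largely from that pick and is no separate result.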

How the data were processed

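Paired reads (75 bases each, per the labels' protocols) of LaminB1 CUT&RUN libraries were aligned to hg38. The submitters' processing notes name Bowtie2 2.3.4.3 and Picard. The name of the region caller is not given in the sources used here. All of the 4 deposited lists are on a 1 kb grid. Raw counts of LaminB1 reads and of control library reads were deposited for each region, per the file headers. Each region's p-value, plain and adjusted, was computed by the authors' caller, per the file headers. The deposited log2 fold compares both counts less 1 constant per list, and the deposited score is 100 times that fold. Files were matched to samples by genotype, auxin state and replicate number. No separate file of the IgG libraries was analysed here; whether their reads are the control library counts is not stated.

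Covered shares of RefSeq gene bodies (GRCh38.p14, chromosomes 1 to 22 and X) were computed in Python 3.11.15 with numpy 2.4.6 and pandas 2.3.3. Genes covered in at least 1 list went into limma 3.58.1 (R 4.3.3) as arcsine square roots of the share, with a variance trend and Benjamini-Hochberg adjustment over all 3058 genes. Code was tested on simulated data. Summed lengths used exact permutation tests. The 10 genes, the gene lists and the tests were chosen with earlier results of these data known.

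Named genes were the 10, the checks, neighbours within 1 Mb of the cluster or adjacent to the others, the 3 largest differences per list, and the 3 nearest patterns of the 3 members with the largest differences. As alternatives, single replicates were left out, the replicate number was used as a block, and region thresholds, number, width and merging, gene bounds, filter and transformation were changed.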

Additional observations from a re-analysis of the deposited data

How the results depend on the processing

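Counts of genes called over the whole table moved most. Called higher were 51 genes, and 106 to 377 with 1 library left out; called lower were 30, and 121 to 228. With 10 kb flanks limma called 0 in either direction (319 and 224 at an unadjusted p under 0.05), and with a replicate block 0 as well (194 and 134). An equal region number gave 26 higher, and closing gaps up to 5 kb gave 46 lower. Replicate numbers share only a number: deviations of same-numbered libraries correlated at -0.020 over genes. KCND2 stayed higher in all 13 alternatives, at 29.3 to 44.5 points (adjusted p 0.112 to 0.449), and KCNH5 at 4.91 to 36.7 points. KCNH7 turned to -1.29 points without control 1, -4.69 without double loss 1 and -2.14 with gaps closed, and ranged up to 5.07 with 1 library left out. SCN2A and SCN3A passed when 1 library was left out, as given above. KCNQ3 went from 0 to -50 points when only the upper 50% of each list by fold was kept, which drops its region in double loss 2, and KCNB2 to -7.02 points with an equal region number. The covered length of the 10 genes went from 221 to 112 kb with the upper 50% of regions. The 2q24 cluster ranged from -66.5 kb (without control 2) to 1.5 kb (without control 1). Edges with a partner were 84, and 49 and 130 at 1 and 10 kb. Of the named genes, only the 10 and TSPAN12, whose lost calls are given above, were recomputed. A fit with no filter on uncovered genes could not be made, since most have no spread. Depth outside regions is unknown, which limits all shares to the authors' calls.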

Other observations

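Neighbours of the other potassium channel genes gave further values. FIGN, a microtubule-severing enzyme gene above KCNH7, was at 67.8% and 60.7% in the control lists and at 93.3% and 100% in the double loss lists (limma unadjusted p = 0.0283, adjusted p = 0.243). The values of KCNH7 itself overlapped between the groups. IFIH1, a sensor of viral RNA below KCNH7, was at 38.6% and 0% against 46.4% and 42.5%. On either side of KCNH5, SYT16 was at 68.8% and 42.2% in the control lists and at 34.9% and 39.2% in the double loss lists, and RHOJ at 65.7% and 62.9% against 52.3% and 41.5% (adjusted p = 0.589 and 0.517).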
